A study of Mus musculus with 6 samples.

Results

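The genes described here handle heme and iron. There are 7 of them among the 32285 genes of the deposited matrix, chosen by symbol: Hmox1, Blvrb, Fth1, Ftl1, Slc40a1, Tfrc and Slc11a1. All 7 were detected, with between 389 UMIs (Slc40a1) and 1146003 UMIs (Fth1) in the cells kept. They were followed across cell lineages gated by marker genes. Within the gate for macrophages or monocytes, cells that differed in their counts of the complement genes C1qa, C1qb and C1qc were also compared. A UMI is a molecular tag that marks 1 captured RNA molecule.

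Tumors were grown in male mice from MOC-2, a mouse line of head and neck squamous cell carcinoma (HNSCC), injected under the skin. The labels list 3 treated tumors, given an experimental agent, and 3 tumors given vehicle, all by injection into the tumor. Live cells were sorted 24 hours later, marked with a tag per tumor and pooled for droplet 3′ sequencing. The treatment protocol names Copper(II) diethyldithiocarbamate, clodronate, R848, 4-1BB ligand, galunisertib, L-NMMA, epcadostat, Nw-Hydroxy-nor-L-arginine, 5’ppp-dsRNA/Lyovec, 2-C1-IB-MECA and a c-di-AM(PS)2 compound, in DMSO or sterile water, without saying which of them the treated tumors received, and the labels used here give neither the strain nor the age of the mice. No label ties a cell to a tumor, so treated and vehicle tumors could not be compared, and every value below describes 1 pooled sample with no test. The cells carry 6 barcode suffixes, called barcode sets here. The sets belong to no labelled group, they share 0 barcode sequences, and their values are given to show how far a level varied within the pool.

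Heme oxygenase opens the heme ring and releases its iron, and biliverdin reductases reduce the pigment that is left. Iron inside the cell is held in ferritin, a shell of heavy and light chains, enters bound to transferrin through the transferrin receptor, and leaves through ferroportin. Macrophages that take up dying red cells are known for recycling iron along this route. When iron is scarce, iron regulatory proteins bind a hairpin in some of these mRNAs. Binding in the 5′ UTR blocks translation, and binding in the 3′ UTR protects the mRNA from decay.

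Because these hairpins set 4 of the 7 genes apart by sequence, they are shown before the levels. The UTRs of protein-coding mouse transcripts were searched on the sense strand for the loop CAGTGN, closed by 5 paired bases on each side, with an unpaired C 5 bases before the loop. A match in the 5′ UTR was found in 28 of 21875 coding genes, 0.128%, which include Fth1, Ftl1 and Slc40a1. A match in the 3′ UTR was found in 127 genes, 0.581%, which include Tfrc with 4 matches. Hmox1, Blvrb and Slc11a1 held none. Each stretch below is 30 bases, 5′ to 3′ on the mRNA strand of GRCm38 (mm10), from GENCODE M21 transcripts, with the loop in capitals.
Fth1, 5′ UTR, chr19:9982732-9982761, + strand: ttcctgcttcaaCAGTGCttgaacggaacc
Ftl1, 5′ UTR, chr7:45459778-45459807, − strand: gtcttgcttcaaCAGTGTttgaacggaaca
Slc40a1, 5′ UTR, chr1:45925464-45925493, − strand: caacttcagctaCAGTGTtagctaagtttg
Tfrc, 3′ UTR, chr16:32631219-32631248, + strand: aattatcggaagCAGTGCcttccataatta
Tfrc, 3′ UTR, chr16:32631598-32631627, + strand: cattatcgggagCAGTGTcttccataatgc
Tfrc, 3′ UTR, chr16:32631663-32631692, + strand: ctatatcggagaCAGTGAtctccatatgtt
Tfrc, 3′ UTR, chr16:32631710-32631739, + strand: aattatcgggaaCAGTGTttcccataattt
A match describes the letters only, since binding was not measured.

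Of 14818 cells, 13768 passed the filters and 10392 fell into 1 of 12 lineages with at least 20 cells. The barcode sets held 901 to 4077 cells and 7354560 to 38798439 UMIs each. The gate for macrophages or monocytes held 1481 cells, called macrophage-like or macrophages here, monocytes included. Their median was 2249 UMIs, fewer than the 8261 of osteoclast-like cells or the 10391 to 11418 of the most numerous cells. The mice were male, and those most numerous cells, 7280 in all, were gated by a Xist UMI with no Y-linked or Ptprc UMI. They are left unnamed and are divided into matrix-rich and matrix-low by fibroblast genes. Of the keratins of squamous epithelium, Krt5 stood at 114 CPM in the 464 epithelial-like cells. It stood at 0.0778 CPM in the matrix-rich and 0 CPM in the matrix-low Xist-positive cells, whose leading genes held another keratin gene, Krt18. Krt5 is 1 of the markers of the epithelial gate, and cells passing that gate were left out of both Xist-positive classes. The gates thus partly set this contrast. Epithelial-like cells also carried Xist, at 1392 CPM, beside 1246 CPM in matrix-rich and 1424 CPM in matrix-low cells. CPM is the count of a gene divided by all UMIs of the cells summed and scaled to 1000000. Erythroid cells, the other cells with much heme, formed no class, and 6 erythroid genes summed to 101 UMIs in all cells kept and 1 UMI in macrophage-like cells.

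The macrophage-like cells stood out across the list. Their levels were at least 2-fold above all other cells for 6 of the 7 genes, where 12.5% of the 14404 genes compared were that much higher and 28% that much lower. The median fold of the 7 genes was 3.95, beside 0.769 over all genes compared. Tfrc was the exception. The macrophage-like cells also held 177 CPM of Xist and 127 CPM of the collagen gene Col3a1, genes that were highest in other lineages, and their part in these levels was not tested further than this. In those without a Xist UMI, Hmox1 stood at 1745 CPM and Fth1 at 32085 CPM, above their levels in the whole gate. Both levels also varied with depth, as given below, and the depth of the cells without a Xist UMI was not compared. In the neutrophil-like cells 4 of the 7 were at least 2-fold higher (11% of all genes), but that gate held 52 cells. Slc40a1 and Slc11a1 rested there on 5 and 8 UMIs. The neutrophil-like cells also held 404 CPM of Xist and 867 CPM of Col3a1, whose part in their levels was not tested.

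**Figure D1:**
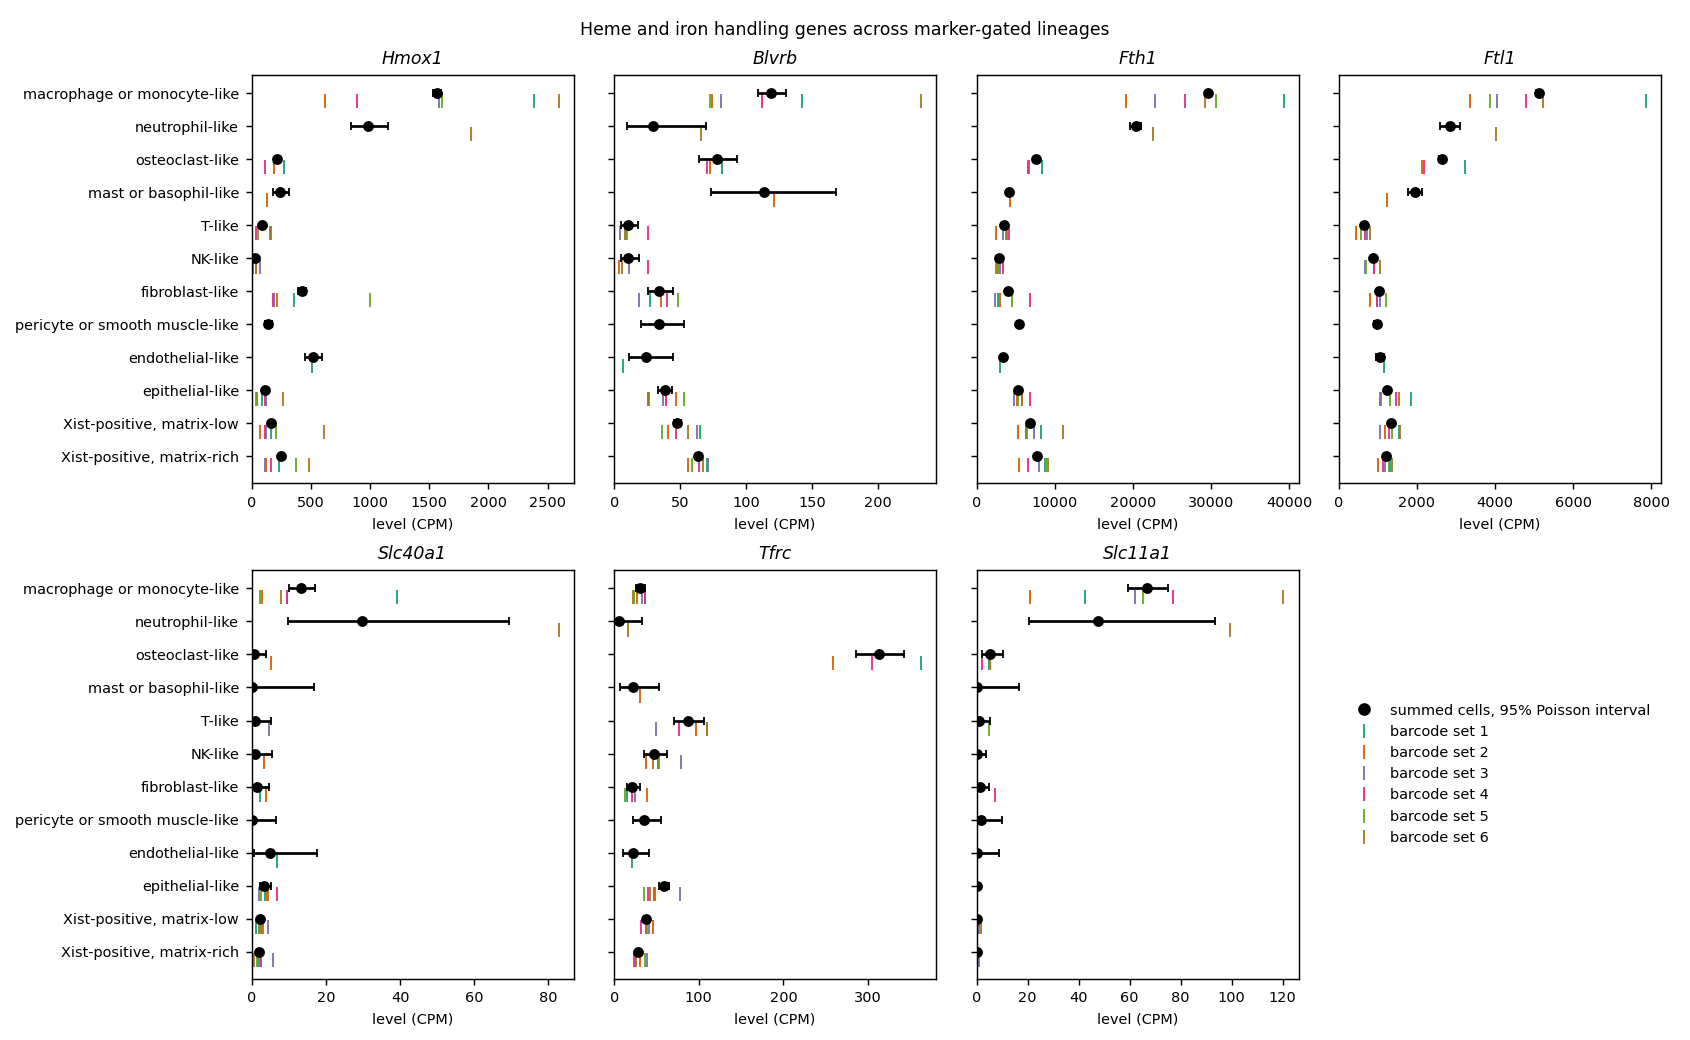
Level in CPM (linear axes, each gene on its own scale) of the 7 genes in 12 lineages. Black points are summed cells with their exact 95% Poisson interval, and coloured ticks are barcode sets with at least 20 cells of the lineage. Hmox1, Fth1, Ftl1 and Slc11a1 lie farthest right in macrophage-like cells (Slc11a1 at 66.9 CPM), and Tfrc does so in osteoclast-like cells at 313 CPM.

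Hmox1 (ENSMUSG00000005413, chr8:75093621-75100589, + strand) encodes the inducible heme oxygenase. In macrophage-like cells its level was 2387, 619, 1581, 888, 1609 and 2593 CPM in barcode sets 1 to 6, against 248, 111, 177, 168, 343 and 528 CPM in the other cells of the same sets. The lowest macrophage value lay above the highest value of other cells, and sets 2 and 4 were the lowest on both sides. Pooled, the levels were 1565 CPM (95% Poisson interval 1528 to 1604) in macrophage-like cells and 244 CPM in all other cells, a ratio of 6.42. Intervals of this kind cover counting error only.

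Below the macrophages, Hmox1 stood at 985 CPM in neutrophil-like, 518 CPM in endothelial-like and 425 CPM in fibroblast-like cells. The intervals of endothelial-like cells (451 to 592 CPM) and fibroblast-like cells (393 to 459 CPM) overlapped. Fibroblast-like cells were uneven, with 180 CPM in their lowest and 996 CPM in their highest barcode set, set 5. Without that set their level was 325 CPM. The neutrophil-like value rested on set 6 in the same way and was 500 CPM without it. Its place below the macrophages was not stable either. With cells of at least 200 genes and under 25% mitochondrial counts, Hmox1 was at 1711 CPM in neutrophil-like and 1576 CPM in macrophage-like cells, and as a mean over cells it was at 1779 CPM in neutrophil-like and 1771 CPM in macrophage-like cells.

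The remaining lineages had less Hmox1. It stood at 250 CPM in matrix-rich and 160 CPM in matrix-low Xist-positive cells, 237 CPM in mast or basophil-like, 217 CPM in osteoclast-like, 138 CPM in pericyte or smooth muscle-like and 112 CPM in epithelial-like cells. T-like cells had 83.1 CPM and NK-like cells had the lowest level, 24.0 CPM. Between these neighbours, the interval of mast or basophil-like cells (177 to 311 CPM) overlapped those of matrix-rich and osteoclast-like cells. The matrix-rich interval (246 to 254 CPM) lay above the osteoclast-like one (194 to 242 CPM). By barcode set that order was kept in set 4 and reversed in sets 1 and 2. It also turned with depth. From 2000 to under 5000 UMIs, Hmox1 was at 310 CPM in matrix-rich and 785 CPM in osteoclast-like cells (27 cells). From 5000 UMIs up it was at 248 CPM in matrix-rich and 160 CPM in osteoclast-like cells. In set 6, where macrophages were highest, Hmox1 was also highest in both Xist-positive classes, at 482 CPM in matrix-rich and 614 CPM in matrix-low cells.

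Hmox1 was unevenly spread among the macrophages themselves. After thinning each cell to 1000 UMIs, which left out 76 of 1481 cells, 44.6% of cells (exact 95% binomial interval 42.0 to 47.3%) had a Hmox1 UMI, against 60.8% before thinning. In NK-like cells, with a median of 3437 UMIs, the share was 1.84% after thinning (217 cells) and 9.42% before. The 10% of macrophages with most Hmox1 (141 of 1405) held 64.2% of its UMIs, while the 10% with most Fth1 held 27.0% and those with most Ftl1 30.5%. In the thinned cells the mean was 1.76 UMIs for Hmox1, 32.0 for Fth1 and 5.15 for Ftl1. Counting error weighs most on the gene with fewest UMIs, and barcode sets that differ in Hmox1 were pooled. The part of both in these shares was not tested. The level of Hmox1 also went with depth: 1766 CPM in cells under 2000 UMIs, 1860 CPM from 2000 to under 5000 UMIs and 816 CPM from 5000 UMIs up. In cells of at least 5000 UMIs, it was 816 CPM in macrophage-like cells and 225 CPM in other cells. The part of depth in these levels was not tested beyond this.

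Blvrb (ENSMUSG00000040466, chr7:27447978-27466144, + strand) encodes a biliverdin reductase. Its level in macrophage-like cells ranged over barcode sets from 73.0 to 232 CPM with a median of 96.5 CPM, and was above the other cells of the same set in 6 of 6 sets. Pooled, it was 119 CPM (109 to 130) in these cells and 57.5 CPM in all other cells, a ratio of 2.07. Without set 6 the ratio was under 2, with 104 CPM in macrophage-like cells and 57.2 CPM in other cells.

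Blvrb was not the macrophages' own: mast or basophil-like cells had 114 CPM with an overlapping interval (73.7 to 168), and osteoclast-like cells had 77.8 CPM. Matrix-rich and matrix-low Xist-positive cells had 63.9 and 48.0 CPM. The other stromal and epithelial lineages and the neutrophil-like cells lay between 24.2 and 38.4 CPM, with NK-like and T-like cells lowest at 10.5 and 10.2 CPM. Blvra, the other biliverdin reductase, was at 42.4 CPM in macrophage-like cells and 21.1 CPM in other cells, and highest in osteoclast-like cells at 47.0 CPM.

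**Figure D2:**
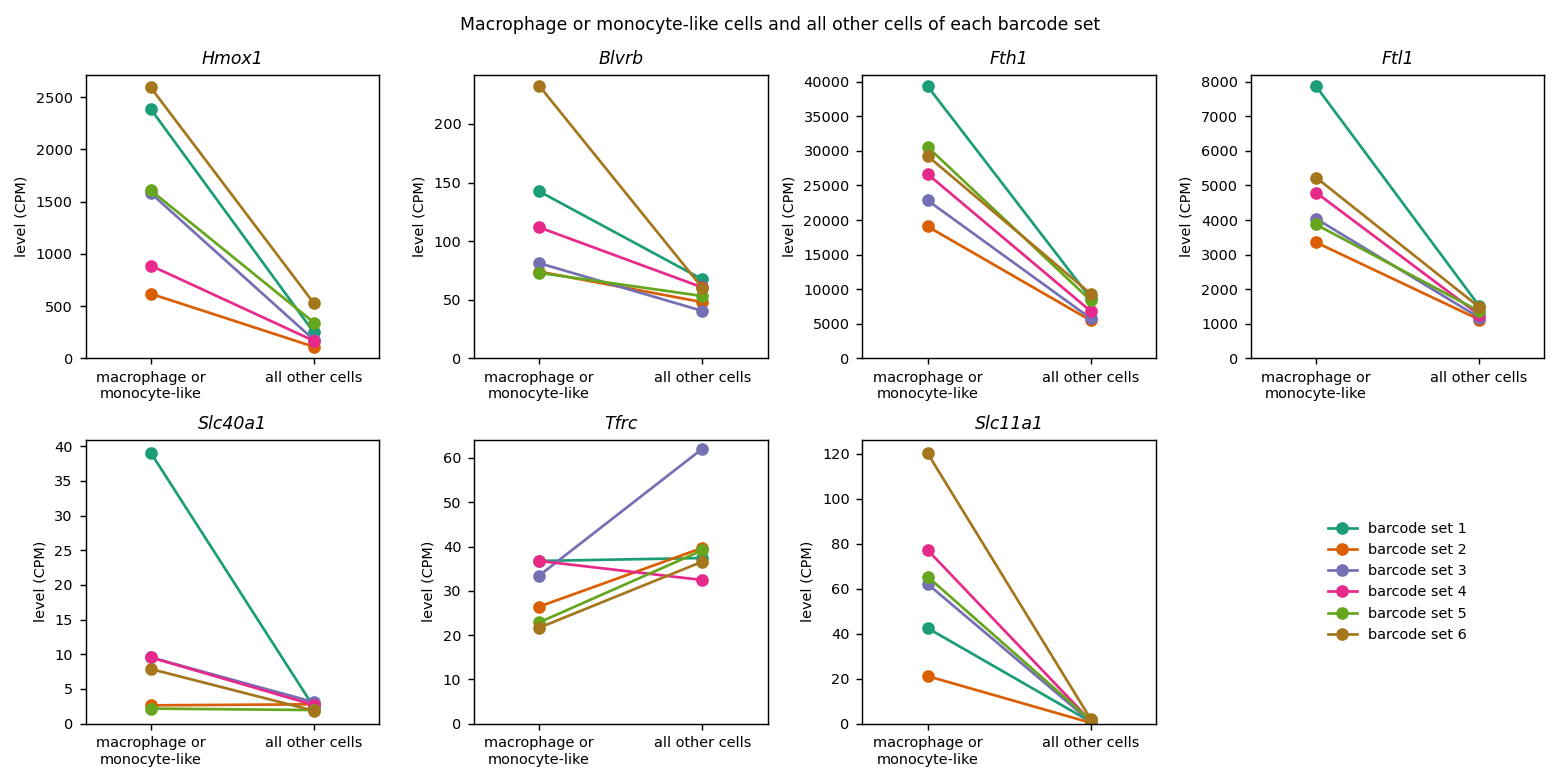
Level in CPM (linear axes from 0) of each gene in macrophage-like cells, left, and in all other cells, right, with 1 line per barcode set. The lines of Hmox1, Blvrb, Fth1, Ftl1 and Slc11a1 fall to the right in 6 of 6 sets, those of Slc40a1 in 5 and that of Tfrc in 1.

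Fth1 (ENSMUSG00000024661, chr19:9980598-9985098, + strand) encodes the ferritin heavy chain, which oxidises the iron to be stored. It took 2.95% of all UMIs of macrophage-like cells. Its level in their barcode sets 1 to 6 was 39333, 19064, 22841, 26640, 30564 and 29257 CPM, against 8668, 5475, 5775, 6819, 8366 and 9331 CPM in other cells. The 2 ranges were far apart. Pooled, it was 29543 CPM (29380 to 29707) in macrophage-like cells and 7487 CPM in all other cells, 3.95-fold.

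Neutrophil-like cells had 20352 CPM of Fth1, but their order against macrophages turned with the processing. They had 30490 CPM, against 29518 CPM in macrophage-like cells, under the looser cell filter, and 33199 CPM, against 31525 CPM in macrophage-like cells, as a mean over cells. Matrix-rich Xist-positive cells (7726 CPM), osteoclast-like cells (7549 CPM) and matrix-low Xist-positive cells (6828 CPM) followed, close to each other when pooled. In the 3 sets that matrix-rich and osteoclast-like cells share only 1 kept their order. It also turned with depth. From 2000 to under 5000 UMIs, Fth1 was at 5726 CPM in matrix-rich and 13878 CPM in osteoclast-like cells. From 5000 UMIs up it was at 7800 CPM in matrix-rich and 6895 CPM in osteoclast-like cells. All other lineages were between 2879 CPM, in NK-like cells, and 5406 CPM, in pericyte or smooth muscle-like cells. Within macrophages Fth1 stood at 30431 CPM in cells under 2000 UMIs, 33464 CPM from 2000 to under 5000 UMIs and 20919 CPM from 5000 UMIs up. The deepest macrophages were still above other cells of at least 5000 UMIs, which had 7379 CPM.

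Ftl1 (ENSMUSG00000050708, chr7:45457944-45459884, − strand) encodes the ferritin light chain, which helps the iron core form. Macrophage or monocyte-like cells had 7872, 3355, 4042, 4797, 3872 and 5231 CPM in sets 1 to 6, against 1517, 1123, 1180, 1260, 1366 and 1485 CPM in other cells. Again no macrophage value fell within the range of other cells, and set 1 was highest and set 2 lowest, as for Fth1. The pooled levels were 5114 CPM (5046 to 5182) and 1332 CPM, in macrophage-like and all other cells, a ratio of 3.84. Neutrophil-like cells with 2837 CPM and osteoclast-like cells with 2645 CPM had overlapping intervals, and T-like cells were lowest at 656 CPM. The near-identical copy Ftl1-ps1 was given 1230 UMIs in the cells kept, beside 203286 for Ftl1. Reads that match both genes may have been dropped in counting, which these counts cannot show. The part of such reads in the levels of Ftl1 and in ratios to it was not tested.

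The chains were not in 1 ratio everywhere. Each UMI marks an mRNA's 3′ end, so their counts can be set against each other without dividing by length. There were 5.78 Fth1 UMIs per Ftl1 UMI in macrophage-like cells (5.00 to 7.89 over 6 sets) and 6.36 in matrix-rich Xist-positive cells (5.33 to 6.86). Osteoclast-like cells had 2.85 (2.59 to 3.13 over 3 sets), below the range of either. They were not alone, since the sets of NK-like cells (3.31 pooled, 2.37 to 4.47) and fibroblast-like cells (3.86 pooled, 2.30 to 7.06) overlapped theirs. Endothelial-like cells had 3.27 pooled and 2.59 in their only set with at least 20 cells. Neutrophil-like cells were highest, with 7.17 pooled and 5.62 in their only such set. Mast or basophil-like cells had 2.11 pooled, but 3.50 in their only set with at least 20 cells. Depth differed between lineages, and the 2 chains went differently with it. In macrophage-like cells under 2000 UMIs, Fth1 was at 30431 CPM and Ftl1 at 4176 CPM. From 5000 UMIs up they were at 20919 and 4802 CPM, and in osteoclast-like cells of that depth at 6895 and 2527 CPM. The part of depth in these ratios was not tested.

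Slc11a1 (ENSMUSG00000026177, chr1:74375195-74386062, + strand) encodes NRAMP1, which moves divalent metal out of the phagosome. It was the most lineage-bound of the 7 genes by its share of UMIs: 65.4% of them came from macrophage-like cells, which held 3.02% of all UMIs. The level was 42.5, 21.1, 62.1, 77.2, 65.4 and 120 CPM in barcode sets 1 to 6 of these cells, against 0.399 to 2.03 CPM in other cells. Pooled, it was 66.9 CPM (59.4 to 75.2) in macrophage-like cells and 1.10 CPM in all other cells, 60.8-fold. Only neutrophil-like cells came near, at 47.5 CPM (20.5 to 93.6), which overlaps. Osteoclast-like cells had 5.37 CPM from 8 UMIs, and 4 lineages had 0 UMIs. A Slc11a1 UMI was seen in 7.47% of macrophages thinned to 1000 UMIs (15.9% unthinned) and in 0 of 217 NK-like cells, where the exact upper bound is 1.69%.

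Slc40a1 (ENSMUSG00000025993, chr1:45908068-45926523, − strand) encodes ferroportin, the iron exporter, and was scarce. Macrophage or monocyte-like cells held 56 UMIs of it, of which 34 came from barcode set 1. Their levels were 39.0, 2.64, 9.55, 9.56, 2.18 and 7.88 CPM in sets 1 to 6, against 1.87 to 3.10 CPM in other cells, so sets 2 and 5 lay within the range of other cells. The pooled level was 13.2 CPM (10.0 to 17.1) in macrophage-like cells and 2.44 CPM in all other cells, 5.40-fold. Without set 1 it was 6.52 CPM in macrophage-like cells and 2.46 CPM in other cells.

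In neutrophil-like cells Slc40a1 read 29.7 CPM, from 5 UMIs, with an interval of 9.64 to 69.3 CPM. The interval of endothelial-like cells, 4.84 CPM from 2 UMIs, also overlapped that of the macrophages. Epithelial-like cells had 3.39 CPM, matrix-low Xist-positive cells 2.28 CPM and matrix-rich ones 1.90 CPM. The 6 other lineages held 0 to 2 UMIs each, too few to order.

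Tfrc (ENSMUSG00000022797, chr16:32608920-32632794, + strand) encodes the transferrin receptor, through which cells import iron. It was highest in osteoclast-like cells, the bone-resorbing cells of the macrophage line, here 165 cells gated by Ocstamp, Dcstamp, Atp6v0d2, Ctsk, Acp5 and Oscar. The level was 362, 258 and 305 CPM in barcode sets 1, 2 and 4 of these cells, against 30.8, 37.6 and 29.1 CPM in the other cells of those sets. The other sets held under 20 such cells. Pooled, it was 313 CPM (286 to 343) in osteoclast-like cells and 34.8 CPM in all other cells, 9.0-fold. Of all genes, 10.7% were at least 2-fold higher in osteoclast-like cells, and Tfrc was the only 1 of the 7. When thinned to 1000 UMIs, 26.1% of osteoclast-like cells (19.5 to 33.5%) had a Tfrc UMI. The share was 7.41% (4.80 to 10.8%) in T-like cells, the next highest, 2.35% in macrophages and 2.76% in NK-like cells.

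T-like cells followed with 86.8 CPM of Tfrc, 2.32-fold above other cells (14.1% of genes were at least 2-fold higher there), and were higher in 4 of 5 sets. Epithelial-like (58.4 CPM) and NK-like cells (46.9 CPM) had overlapping intervals. Macrophage or monocyte-like cells, at 30.9 CPM, were below other cells in 5 of 6 sets, with a pooled ratio of 0.813. That direction turned with depth: in cells of at least 5000 UMIs, Tfrc was at 42.8 CPM in macrophage-like and 38.0 CPM in other cells. The lowest level was that of neutrophil-like cells, 5.94 CPM from 1 UMI.

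The split by C1q asked whether the same genes differ among macrophage-like cells, whose gate takes in monocytes. C1q-positive cells of this gate, with at least 3 UMIs of the 3 C1q genes, numbered 804. C1q-negative cells of this gate, with none, numbered 568. Another 109 with 1 or 2 UMIs were left out. Median depth was 2476 UMIs in C1q-positive and 2090 UMIs in C1q-negative cells. By other genes, the positive cells had 3.03 times the Apoe and 2.38 times the Mrc1, and 0.425 times the Ly6c2 and 0.483 times the Ccr2, of the negative cells. The gate does not part macrophages from monocytes, and how far the 2 classes differ in their share of monocytes was not tested. Xist was at 191 CPM in C1q-positive and 139 CPM in C1q-negative cells.

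Only Slc40a1 was at least 2-fold higher in C1q-positive cells, 1 of the 7 genes, where 5.72% of the 6751 genes compared were. None of the 7 was 2-fold lower (2.03% of genes). Genes were compared if they held at least 50 UMIs in both classes summed. Slc40a1 held 51 UMIs in C1q-positive and 5 in C1q-negative cells. It thus entered the comparison through the class in which it was high, and its call cannot be weighed against the 5.72%. The median ratio was 1.10 for the 7 genes and 1.09 for all genes compared. By the median over barcode sets, with a floor of 3 counts per set, the ratio of Slc40a1 was 1.34. There 0 of the 7 genes passed 2-fold. In sets 2, 3 and 5 both classes held fewer Slc40a1 UMIs than the floor, so the ratio there reflects only total UMIs. That median thus cannot decide the call of Slc40a1. The list as a whole sat where other genes sat.

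Slc40a1 stood at 52.1, 6.02, 17.7, 13.4, 3.54 and 14.1 CPM in C1q-positive cells of barcode sets 1 to 6, against 13.1, 0, 7.40, 2.82, 0 and 0 CPM in C1q-negative cells. It was higher in the positive cells of all 6 sets, but in 3 of the sets the negative cells held 0 UMIs, the positive cells of sets 2 and 3 held 1 UMI each and 31 of their 51 UMIs came from set 1. Pooled, the level was 19.9 CPM in C1q-positive and 3.58 CPM in C1q-negative cells, from 51 and 5 UMIs, a ratio of 5.55 with a counting interval of 2.23 to 17.8. The ratio was 3.95 without set 1. By steps of C1q UMIs it was 3.58 CPM at 0, 0 at 1 to 2, 15.0 CPM at 3 to 9 and 22.4 CPM at 10 or more. Thinned to 1000 UMIs, a Slc40a1 UMI appeared in 10 of 781 C1q-positive cells, 1.28% (0.616 to 2.34%). It appeared in 0 of 528 C1q-negative cells, where the exact upper bound is 0.696%, so the intervals overlap. When cells were thinned before the split, 617 positive cells held 15 Slc40a1 UMIs and 592 negative cells held 2. In macrophages without a Xist UMI the ratio of the unthinned levels was 7.36.

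**Figure D3:**
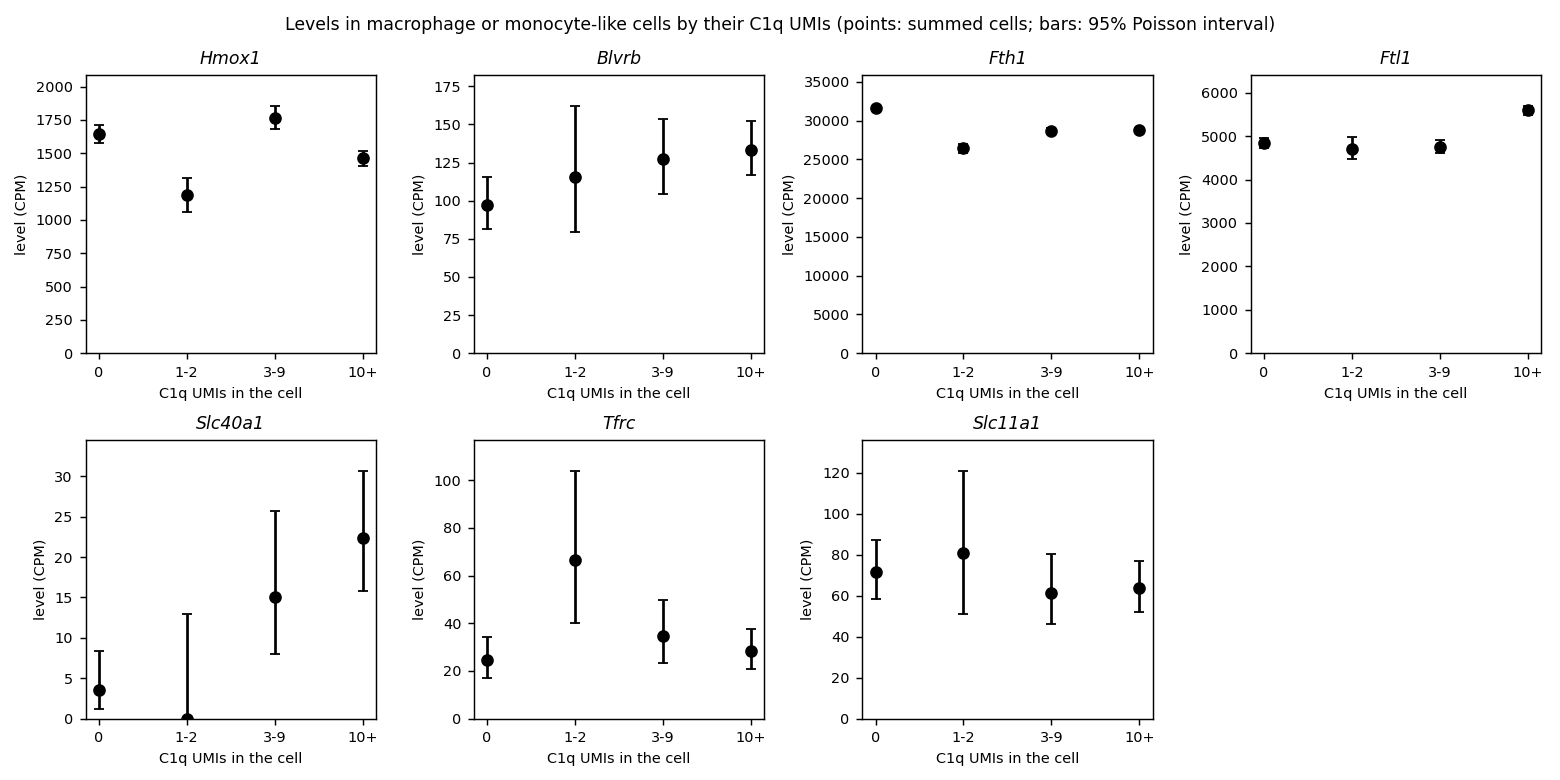
Level in CPM (linear axes from 0) of each gene in macrophage-like cells grouped by their UMIs of C1qa, C1qb and C1qc, from 0 to 10 or more. Points are summed cells and bars exact 95% Poisson intervals. Slc40a1 is at 3.58 CPM at 0 and 22.4 CPM at 10 or more, while Hmox1 goes up and down, between 1185 and 1767 CPM.

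Blvrb was the other gene higher in C1q-positive cells of 6 of 6 sets. It stood at 131 CPM in C1q-positive and 97.5 CPM in C1q-negative cells, a ratio of 1.35 (1.10 to 1.66), and the sets ranged from 79.7 to 232 CPM in positive and from 55.2 to 220 CPM in negative cells. These ranges overlap almost wholly, so sets differed from each other more than the classes did.

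Hmox1 showed no common direction. Its level was 1564 CPM in C1q-positive and 1645 CPM in C1q-negative cells, a ratio of 0.951 (0.903 to 1.00). By barcode set the ratio was 0.867, 0.733, 1.20, 1.77, 0.934 and 0.621. Set 4, with 1070 CPM in positive and 603 CPM in negative cells, and set 6, with 2013 CPM in positive and 3241 CPM in negative cells, lay farthest apart.

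Of the ferritin chains, Fth1 was at 28737 CPM in C1q-positive and 31659 CPM in C1q-negative cells, a ratio of 0.908, and was lower in the positive cells of 5 of 6 sets. Ftl1 was at 5308 CPM in C1q-positive and 4839 CPM in C1q-negative cells, a ratio of 1.10, and higher in the positive cells of 4 sets. For both genes the sets were farther apart than the classes. Slc11a1 was at 62.8 CPM in C1q-positive and 71.7 CPM in C1q-negative cells, 0.876 (0.679 to 1.14), with 3 sets each way. Tfrc was at 30.4 CPM in C1q-positive and 24.4 CPM in C1q-negative cells, 1.25 (0.825 to 1.93), an interval that holds equal levels.

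**Figure D4:**
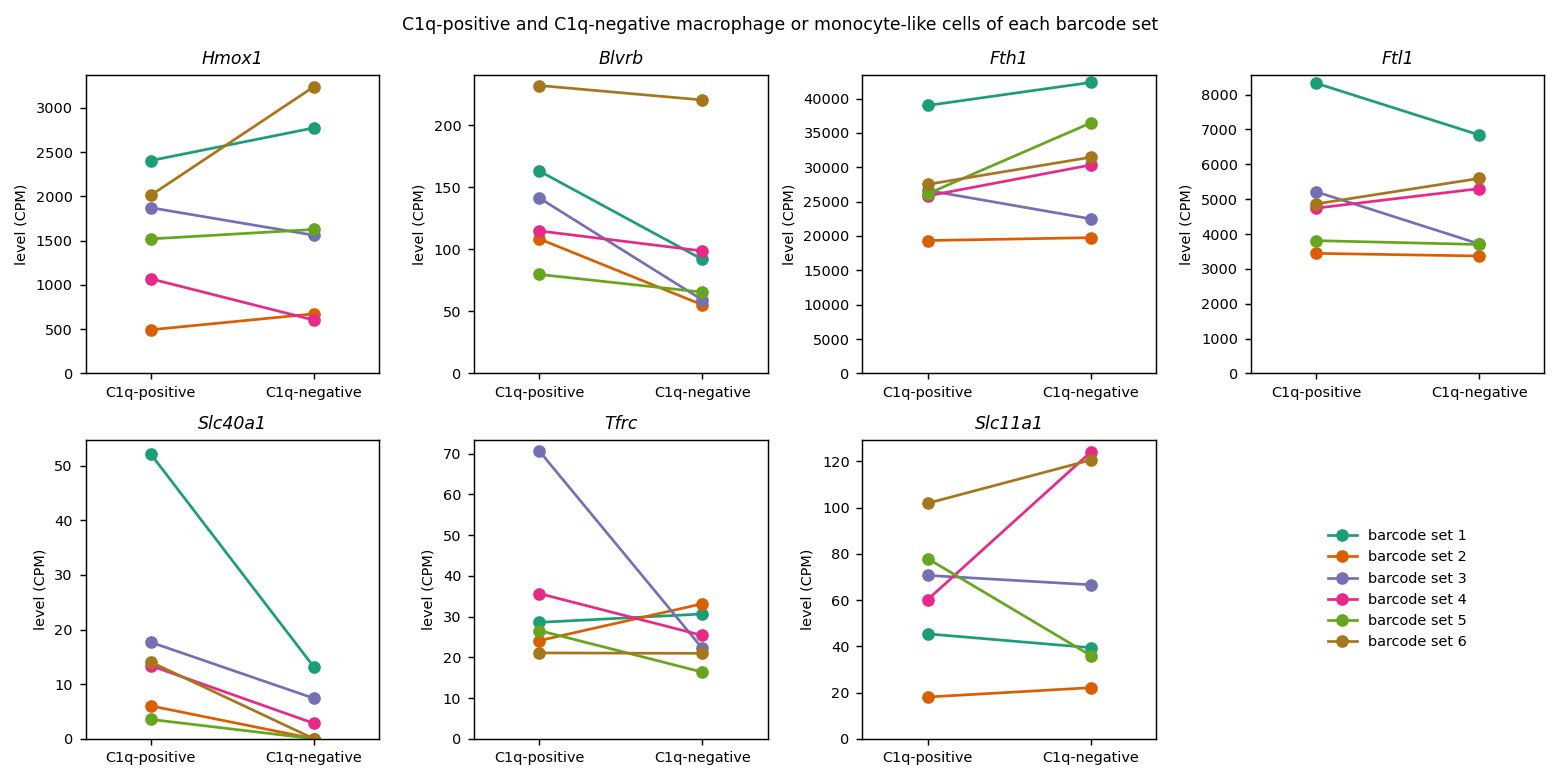
Level in CPM (linear axes from 0) of each gene in C1q-positive macrophage-like cells, left, and C1q-negative ones, right, with 1 line per barcode set. The lines of Slc40a1 and Blvrb fall to the right in all 6 sets, and those of Hmox1 fall in 2 and climb in 4.

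Within macrophages thinned to 1000 UMIs, the genes were also set beside Hmox1. Cells with a Hmox1 UMI (627) had a median of 32 Fth1 and 5 Ftl1 UMIs, and cells without one (778) had 22 and 3. A Blvrb UMI was seen in 14.0% of cells with and 7.20% of cells without a Hmox1 UMI, and a Slc11a1 UMI in 10.0% and 5.40% of the same classes. Slc40a1 was seen in 9 cells with and 1 cell without a Hmox1 UMI. Tfrc hardly differed, at 2.55% of cells with and 2.19% of cells without a Hmox1 UMI, with overlapping intervals. These cells came from 6 sets that differ in Hmox1, and whether the differences hold within a set was not tested.

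The list of other heme and iron genes held 48, of which 39 had at least 50 UMIs and were compared. In macrophage-like cells 11 of the 39 were at least 2-fold higher and 7 at least 2-fold lower, with a median fold of 1.07, beside 12.5% and 28% of all genes and their median of 0.769. Highest was Spic, a transcription factor of iron-recycling macrophages, at 31.8 CPM against 0.521 CPM in other cells, 61.1-fold. Trf, transferrin, was at 78.2 CPM against 2.89 CPM, 27.1-fold, and Hfe, which takes part in iron sensing, at 25.9 CPM against 2.52 CPM, 10.3-fold. Bach1, the heme-sensing repressor of Hmox1, was 3.51-fold higher. Lowest were Cp, the ferroxidase ceruloplasmin (0.129-fold), the metalloreductase Steap4 (0.136-fold) and the heme synthesis enzyme Alad (0.273-fold). By group, 3 of 5 genes of heme transport and breakdown, 4 of 9 regulators and 3 of 7 importers were higher, as was 1 of 8 genes of heme synthesis, while 2 of those 8 were lower. None of 6 mitochondrial iron genes was higher and 2 were lower, none of 3 storage and chaperone genes moved past 2-fold, and Cp was the 1 exporter compared. A group of so few genes cannot be read against the 12.5% of all genes.

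Between C1q classes 26 of these genes could be compared, and 2 were at least 2-fold higher and 2 lower in positive cells, with a median ratio of 1.10. Beside the 5.72% and 2.03% of all genes, these counts are not a result about the list. Spic stood at 41.7 CPM in C1q-positive and 17.9 CPM in C1q-negative cells (2.33-fold, higher in 5 of 6 sets), and Aco1, iron regulatory protein 1, at 19.1 and 9.32 CPM (2.05-fold). The heme exporter Flvcr1 was next with 1.89-fold. Lcn2, which binds iron-loaded siderophores, was at 54.2 CPM in positive and 136 CPM in negative cells (0.398-fold). The neutrophil gene S100a8 went the same way, at 7.02 CPM in positive and 58.8 CPM in negative cells, and its part in the Lcn2 value was not tested. Fbxl5, the iron-sensing ligase subunit that removes iron regulatory protein 2, was at 89.3 CPM in positive and 183 CPM in negative cells, lower in 6 of 6 sets. Alas1, the first enzyme of heme synthesis, was at 0.674-fold.

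In osteoclast-like cells, where Tfrc was highest, 10 of the 39 genes were at least 2-fold higher and 6 lower, beside the 10.7% and 21.1% of all genes. Among the highest were Steap4, at 49.0 CPM in osteoclast-like and 4.58 CPM in other cells (10.7-fold), and Ncoa4, the receptor that takes ferritin to lysosomes, at 176 and 43.5 CPM (4.05-fold). Both were higher in 3 of 3 sets. The importer Slc11a2 was 2.53-fold and Flvcr1 3.49-fold higher. Cp (0.0874-fold) and Lrp1 (0.178-fold) were lowest among genes with a UMI, and Lcn2 had 0 UMIs.

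**Figure D5:**
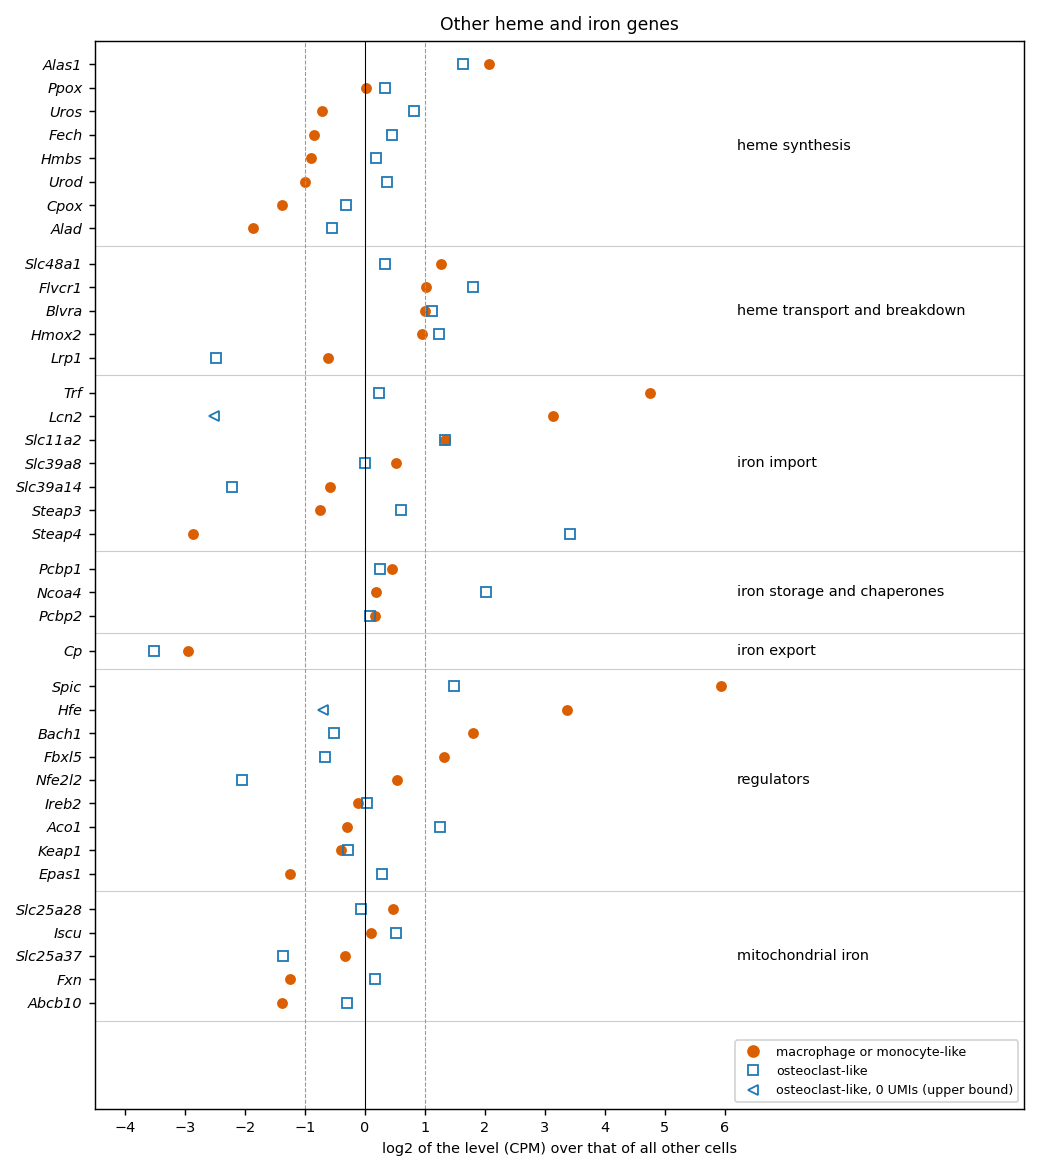
Log2 of the level (CPM) over that of all other cells for the other heme and iron genes compared, by group, in macrophage-like cells (filled circles) and osteoclast-like cells (open squares, with triangles for upper bounds where there were 0 UMIs). Dashed lines mark 2-fold. Spic, Trf and Hfe lie farthest right in macrophages, and Steap4 and Ncoa4 in osteoclast-like cells.

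Last, each gene was set against 10593 genes by the Pearson correlation of log2(CPM + 5) over the 12 lineages, which share libraries and differ in depth, so that r only describes likeness. Hmox1 was most like Ninj1 (r = 0.95), Tmed7 (0.91) and Sat1 (0.90), and Blvrb was most like Wdr81 (0.89), Mfsd5 (0.87) and Tm2d1 (0.86). Fth1 had Cd14 (0.91), Plbd1 (0.91) and Arg1 (0.90) nearest, and Ftl1 had Vps26a (0.96), Daglb (0.93) and Fam174a (0.92). Nearest to Tfrc were Uqcrfs1 (0.94) and Ndufb10 (0.93), nuclear genes for mitochondrial proteins, and the tautomerase gene Ddt (0.94), all highest in osteoclast-like cells. Slc11a1 was nearest to Gm21188 (0.99), Cd14 (0.98) and F10 (0.97). For Slc40a1 the nearest, Lcn2 (0.97), Rsad2 (0.97) and Fpr2 (0.96), were all highest in neutrophil-like cells, where Slc40a1 itself rested on 5 UMIs. Among the 7, Fth1 went closest with Slc11a1 (0.91) and Ftl1 (0.86), and Tfrc had negative or near-zero r with each of the others.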

How the data were processed

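All tumors share 1 deposited matrix of raw UMI counts (32285 genes and 12 multiplexing tags in 14818 cells), written by Cell Ranger per the file headers. Cell Ranger 7.1, Seurat and build mm10 are named per the submitters' processing notes. Filters on cells before deposit are not given in the sources used here. Members and gene lists were chosen with earlier results of these data known, and the gate cut-offs after seeing the data.

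The filter kept cells that had 500 or more genes and less than 15% of counts from mitochondrial genes. A lineage needed at least 3 UMIs over at least 2 of its markers, and cells passing several gates (724) were left out in place of a doublet caller, so doublets may remain. The fibroblast gate also needed a Y-linked UMI and no Xist. The Xist-positive cells rest on 1 marker, and cells with a Y-linked or Ptprc UMI or passing a list other than the fibroblast one were left out. Those passing the fibroblast list were kept apart as matrix-rich, a change from the design. B-like (15) and dendritic-like (12) cells were not ranked.

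Counts were summed per lineage and scaled to CPM, with exact 95% Poisson intervals; shares used cells thinned to 1000 UMIs. Folds used a floor of 3 counts per class and genes with at least 50 UMIs, and 2-fold counted as higher or lower. All 7 genes are named; of the other genes, those with the 3 highest and 3 lowest folds of a comparison, and the 3 most alike, are named by rule. Bach1, Blvra, Slc11a2, Flvcr1 in osteoclast-like cells and the context genes (Apoe, Mrc1, Ly6c2, Ccr2, Xist, S100a8) were named after their values were seen. Tools were numpy 2.4.6, scipy 1.17.1, pandas 2.3.3 and matplotlib 3.10.9. The treated against vehicle comparison was not run. Values of 1 listed gene are not reported here, though the counts over the list include it.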

Additional observations from a re-analysis of the deposited data

How the results depend on the processing

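No paired analysis was possible because no label ties a cell, tag or barcode set to a labelled tumor, so the shared replicate numbers cannot be applied. The count of genes at least 2-fold higher in macrophage or monocyte-like cells was 6, and 5 to 6 over 13 alternatives. It was 5 when cells of several gates went to their highest, without barcode set 6 and in cells of at least 5000 UMIs, and Blvrb was the gene lost each time. The count for the C1q split was 1 in 16 of 17 alternatives and 0 by the median over barcode sets, an alternative chosen after seeing the data. There the ratio of Slc40a1 was 1.34, since a floor of 3 counts applied in each set. The share of macrophages with a Hmox1 UMI moved with depth by construction, from 44.6% to 56.2% when thinned to 2000 UMIs and 60.8% unthinned. Over the alternatives, the ratio of C1q-positive to C1q-negative cells ranged from 0.881 to 1.12 for Hmox1, from 0.989 to 1.20 for Ftl1, from 0.717 to 1.24 for Slc11a1 and from 0.832 to 1.47 for Tfrc, so their side of 1 depends on the processing. In macrophage or monocyte-like cells Hmox1 ranged from 816 to 1885 CPM and Slc11a1 from 29.4 to 75.5 CPM, lowest in cells of at least 5000 UMIs. Of the levels, ratios and shares of single genes, 101 moved by more than their interval and 207 did not. No value past 2-fold turned to the opposite direction. In neutrophil-like cells Hmox1 ranged from 500 to 1779 CPM and Fth1 from 15252 to 33199 CPM, above the macrophages with cells of at least 200 genes and as a mean over cells. The cause of these moves was not tested.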
